A study of Mus musculus with 8 samples.

Results

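The genes described here encode the machinery of oxidative phosphorylation: the subunits of respiratory chain complexes I to IV, cytochrome c, the ATP synthase (complex V), and a few complex I assembly factors. They were chosen by symbol alone, from the gene families Nduf, Sdh, Uqcr, Cyc1, Cycs, Cox4 to Cox8, Atp5 and the 13 mitochondrially encoded mRNAs. The rule holds no measured value, but it was set with earlier results of these data known. The rule found 114 of the 56691 genes counted, 101 encoded in the nucleus and 13 in the mitochondrial genome. A filter on low counts left 105 of them among the 13812 genes tested, 92 nuclear and 13 mitochondrial.

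RNA was sequenced from organoids, 3-dimensional cultures grown from the epithelium of the hindstomach (the glandular part of the stomach) of mouse embryos at embryonic day 18.5. Cultures were kept in growth medium for 5 days and then in differentiation medium for 7 days. All 8 carried Shh-Cre, a Cre recombinase under the control of Shh. The 4 libraries called Ctrl had the genotype Shh-Cre, and the 4 called YAP5SA had the genotype Shh-Cre;YAP5SA, which adds a form of the transcriptional co-activator YAP that escapes its inhibitory phosphorylation. The comparison asks which transcripts differed after differentiation medium between cultures with and without that transgene. Nothing in the labels says whether the 4 libraries of a group came from separate embryos. The p-values therefore cover no more than the spread among the libraries at hand, which may be technical.

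Electrons from NADH enter the respiratory chain at complex I and those from succinate at complex II. They pass through ubiquinone to complex III, then through cytochrome c to complex IV, where oxygen is reduced, and the proton gradient built on the way drives the rotating ATP synthase. Complex II is made of nuclear-encoded subunits alone, while complexes I, III, IV and V also contain subunits made inside the mitochondrion, and in the adult stomach the acid-secreting parietal cell is known for its density of mitochondria.

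The libraries held 17387372 to 25841256 counts. Levels are given as CPM, counts scaled to a common total, on library sizes corrected by TMM, a scaling that assumes most genes do not differ, and tests are edgeR's quasi-likelihood F test with Benjamini-Hochberg adjustment over all 13812 genes. A gene is called where its adjusted p is under 0.05, and differences are log2(YAP5SA/Ctrl). The groups also differed outside these genes. Summed levels of 9 epithelial markers were 39402 to 55562 CPM in Ctrl and 12039 to 14764 CPM in YAP5SA (7 called lower, 1 higher). The largest parts of that sum in Ctrl were Gkn1 and Tff1, with means of 16931 and 10731 CPM against 1360 and 1193 CPM in YAP5SA. The epithelial marker called higher was Epcam, with means of 296 CPM in Ctrl and 592 CPM in YAP5SA (0.998, edgeR adjusted p = 7.12e-08). Krt18 was not called (0.11, edgeR adjusted p = 0.25). Of 12 parietal cell markers, 11 were counted and 5 tested. Of these, 4 were called lower, Atp4a was not called, and the defining markers Atp4b, Cblif and Slc26a7 were at or near 0 in both groups. The summed parietal list was 264 to 302 CPM in Ctrl and 96.7 to 101 CPM in YAP5SA, nearly all of it from Clic6, Slc4a2, Kcnq1 and Sstr2. Fibroblast markers summed to at most 1.52 CPM in Ctrl and 28.7 CPM in YAP5SA, and immune markers to at most 17.8 and 43.5 CPM. The part of these markers in the results below was not tested. In bulk RNA, fewer cells of a type and less RNA per cell cannot be told apart. Counts of Xist were 8436 to 12237 in Ctrl but only 0 to 8 in YAP5SA, and 4 Y-linked genes were counted in every YAP5SA library and in no Ctrl library, so genotype and sex chromosome content cannot be told apart.

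Oxidative phosphorylation genes differed in both directions and mostly by little, and were called at a share near that of all genes. In YAP5SA, 28 of the 105 tested members rose and 35 fell, and 42 did not pass the test. The 63 called members are 60.0% of those tested, against 64.5% of all genes tested. Of all genes, 33.1% were called higher and 31.3% lower. The values of the groups did not overlap for 54 members, 51.4%, against 58.7% of all genes (30.4% higher and 28.3% lower). The sizes of the differences were small beside those of all genes, with no matching for expression level. The median absolute difference was 0.27 on the log2 scale over members and 0.52 over all genes tested, and 81.9% of members differed by less than 0.5, against 48.9% of all genes. Only 3 members passed the test with a difference of at least 1, mt-Nd3, Cox6b2 and Ndufaf6, while 25.5% of all genes did. The members were also measured with less error than most genes, with a median standard error of 0.08 against 0.13. The median signed difference was -0.05 over members and 0.02 over all genes.

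**Figure D1:**
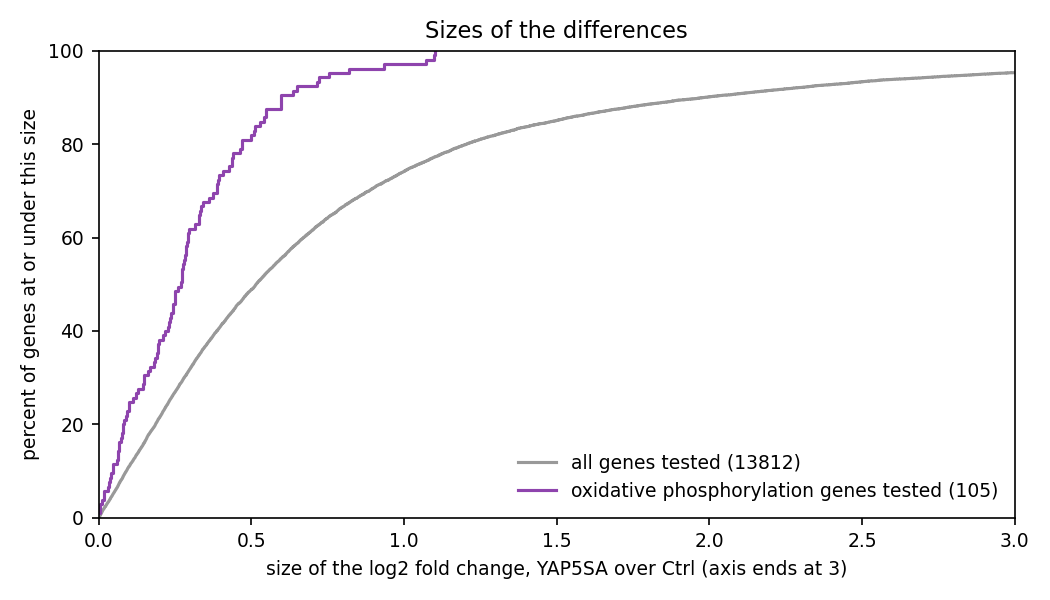
Percent of genes (vertical axis) whose absolute log2(YAP5SA/Ctrl) difference is at or under the size on the horizontal axis, for the 105 oxidative phosphorylation genes and all 13812 genes tested. The members' curve climbs faster, with 81.9% of members under 0.5 against 48.9% of all genes.

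Members were called in both directions in most complexes. Of 39 tested nuclear complex I genes 13 rose and 8 fell, of 9 in complex III 2 rose and 4 fell, of 14 in complex IV 5 rose and 4 fell, and of 17 in complex V 4 rose and 8 fell. Of the 5 complexes, complex II alone had calls in a single direction, with all 4 genes lower under TMM and 1 of 4 still called under library size scaling. The mitochondrial mRNAs were called higher for 2 and lower for 6. Where all counts were scaled by library size alone, the median of all genes moved from 0.02 to 0.19, and the count of members called became 39 higher and 15 lower. Over the whole table the split went from 4577 higher and 4330 lower to 5742 higher and 3201 lower. The members' median stayed 0.06 below that of all genes under the TMM, RLE, upper quartile and library size scalings, so small differences of a single sign are best read against that shift. Among the genes named below, Ndufa10, Ndufv1, Ndufs3, Uqcr11, Uqcrb, Atp5o, Atp5j2 and mt-Nd4l were called lower under TMM and not called under library size scaling. The same held for Sdha, Sdhb, Sdhc, Cyc1, Cox4i1, Cox6a1, Atp5a1, Atp5b and mt-Nd1. Ndufa1 and Cox6c, and outside the members Gabpa and Gabpb1, were called higher under library size scaling and not under TMM.

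**Figure D2:**
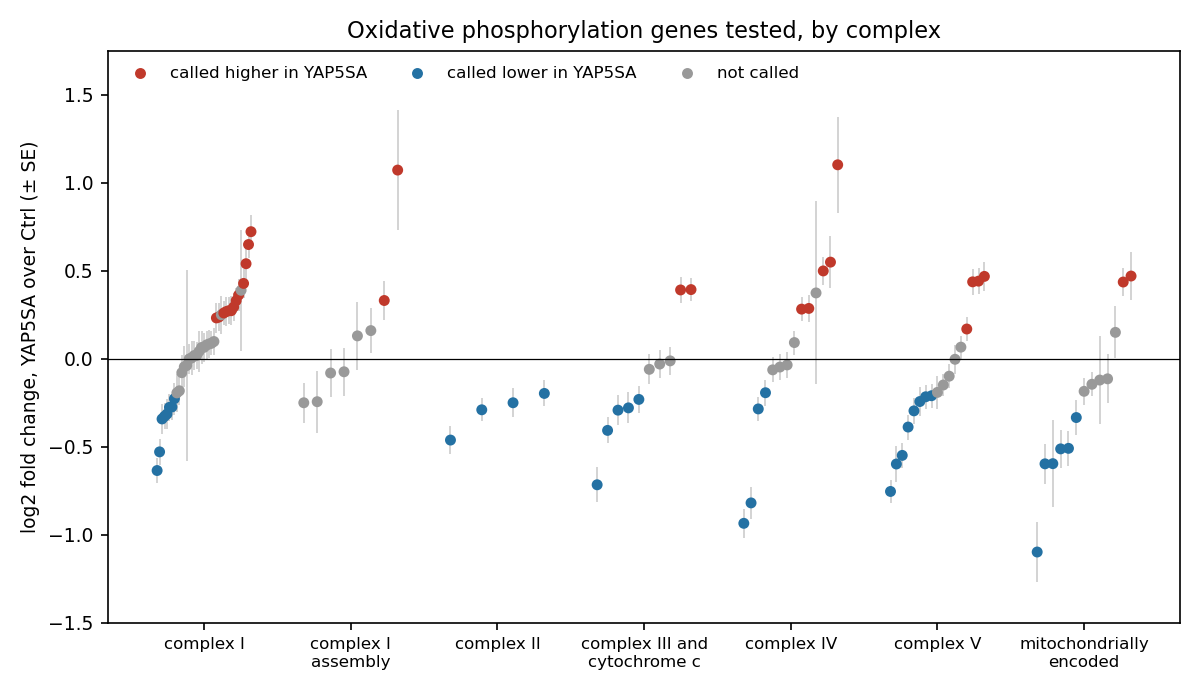
log2(YAP5SA/Ctrl) of each tested member, grouped by complex and genome. Points are genes, bars are 1 SE, and colour gives the call by edgeR. All 4 complex II genes lie below 0, while most other complexes hold genes on both sides.

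Complex I oxidises NADH through a core of catalytic subunits surrounded by accessory subunits. Among the 30 tested accessory subunits 12 rose and 6 fell, and among the 7 nuclear core subunits 1 rose, 2 fell and 4 did not pass. Ndufa8, an accessory subunit on the side of the intermembrane space, fell furthest. It stood at 71.1, 76.6, 76.2 and 77.8 CPM in Ctrl libraries 1 to 4 and at 47.8, 47.2, 47.9 and 51.4 CPM in YAP5SA libraries 1 to 4. Every YAP5SA library was below every Ctrl library, a difference of -0.63 (SE 0.07, edgeR adjusted p = 2.78e-06). Ndufb9, an accessory subunit of the membrane arm, moved likewise, from 80.4, 89.5, 93.3 and 85.6 CPM to 61.2, 61.9, 57.6 and 61.2 CPM (-0.53, SE 0.07, edgeR adjusted p = 1.99e-05). Ndufa10, an accessory subunit of the matrix side, was lower by less (-0.34, SE 0.09, edgeR adjusted p = 0.00291).

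The accessory subunits that rose furthest were Ndufb6, Ndufb3 and Ndufa6. Ndufb3, of the membrane arm, stood at 46.7, 51.7, 51.2 and 46.6 CPM in Ctrl and at 70.6, 80.5, 74.8 and 81.8 CPM in YAP5SA, with no overlap (0.65, SE 0.08, edgeR adjusted p = 5.91e-06). Ndufb6 stood at 36.7, 30.0, 33.1 and 35.4 CPM in Ctrl and at 50.6, 53.2, 57.1 and 61.9 CPM in YAP5SA (0.72, SE 0.09, edgeR adjusted p = 1.06e-05). Of the 75-base stretches in its annotated transcripts, 27.8% also occur in a neighbouring gene, chiefly Smim27, so part of its count is uncertain. Ndufa6, which contacts the mitochondrial acyl carrier protein, was 41.3 to 55.0 CPM in Ctrl and 65.6 to 71.7 CPM in YAP5SA (0.54, SE 0.09, edgeR adjusted p = 0.000174). Ndufb3 and Ndufb9 thus belong to the same arm and moved in opposite directions, each without overlap between groups.

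In the core, Ndufv1, which binds NADH and the flavin, fell by 0.33 on the log2 scale (edgeR adjusted p = 0.00139), and Ndufs3 fell by 0.27 (edgeR adjusted p = 0.00442). Ndufs1, the large iron-sulfur subunit, was 77.3 to 95.7 CPM in Ctrl and 95.8 to 109 CPM in YAP5SA. Its difference of 0.24 passed narrowly (edgeR adjusted p = 0.0214) and no longer passed when Ctrl replicate 2, Ctrl replicate 4, YAP5SA replicate 1 or YAP5SA replicate 4 was left out. The X-linked members did not move together. Ndufa1 (difference 0.07, edgeR adjusted p = 0.503) and Cox7b of complex IV (-0.03, edgeR adjusted p = 0.703) did not pass the test. Ndufb11 was 50.7 to 59.1 CPM in Ctrl and 63.0 to 72.8 CPM in YAP5SA (0.27, edgeR adjusted p = 0.00947), and without Ctrl replicate 2 its difference of 0.21 had an adjusted p of 0.0507.

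The assembly factors within the Nduf family build complex I without being part of it, and 2 of 8 were called, both higher and both with overlapping groups. Ndufaf6 is a low transcript, at 0.652 to 1.12 CPM in Ctrl and 1.01 to 2.39 CPM in YAP5SA (1.07, SE 0.34, edgeR adjusted p = 0.0134). Without YAP5SA replicate 2 its difference was 0.91 and its edgeR adjusted p 0.0502. Ndufaf7, a methyltransferase that acts on the complex I core, differed by 0.33 (edgeR adjusted p = 0.015) and missed the threshold without Ctrl replicate 4 (0.28, adjusted p = 0.0514). For Ndufaf4, YAP5SA replicate 4 stood at 34.9 CPM and the other YAP5SA libraries at 20.2 to 22.3 CPM. The difference of -0.24 was not called (edgeR adjusted p = 0.237), and without that library it was -0.46 (adjusted p = 0.0112).

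Complex II, succinate dehydrogenase, couples the citric acid cycle to the chain, and each of its 4 genes was lower in YAP5SA. Sdhd, a membrane anchor, was 218, 236, 245 and 204 CPM in Ctrl and 157, 180, 151 and 169 CPM in YAP5SA, with no overlap (-0.46, SE 0.08, edgeR adjusted p = 0.000192). Sdhc, the other anchor, was 154, 148, 158 and 145 CPM in Ctrl and 122, 129, 118 and 125 CPM in YAP5SA, again with no overlap (-0.29, SE 0.07, edgeR adjusted p = 0.00157). Sdhb, the iron-sulfur subunit, was 62.4 to 75.6 CPM in Ctrl and 53.7 to 59.7 CPM in YAP5SA (-0.25, SE 0.08, edgeR adjusted p = 0.0164). Sdha, the flavin-containing catalytic subunit, was 252 to 292 CPM in Ctrl and 220 to 253 CPM in YAP5SA. Its groups overlapped, as YAP5SA replicate 2 exceeded Ctrl replicate 4 (-0.20, SE 0.07, edgeR adjusted p = 0.0301). Sdha missed the threshold without the filter on low counts, when Ctrl replicate 3 was left out (adjusted p = 0.0678), and when YAP5SA replicate 4 was (adjusted p = 0.064). Only Sdhd was still called lower under library size scaling (-0.29, edgeR adjusted p = 0.00404), where Sdhc, Sdhb and Sdha stood at -0.12, -0.08 and -0.02 and no longer passed. Under upper quartile scaling Sdhc and Sdhd were called and the other pair was not.

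**Figure D3:**
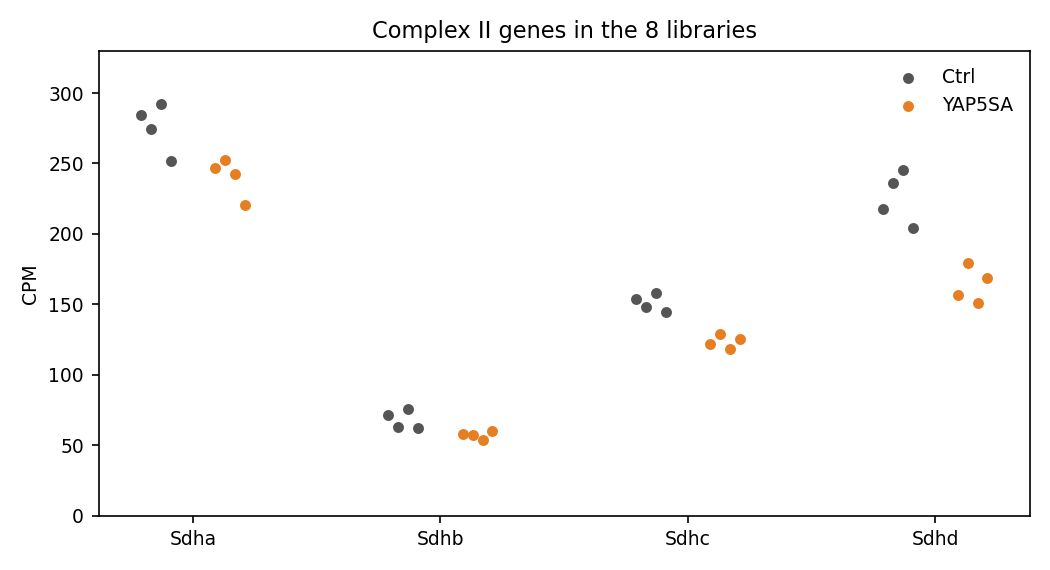
CPM of Sdha, Sdhb, Sdhc and Sdhd in each of the 8 libraries, with 1 point per library. The groups separate for Sdhb, Sdhc and Sdhd and overlap for Sdha.

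Complex III passes electrons from ubiquinol to cytochrome c, and the mRNAs of its paired core proteins moved apart. Uqcrc1 was 127, 105, 116 and 120 CPM in Ctrl and 89.6, 84.8, 87.4 and 90.9 CPM in YAP5SA (-0.41, SE 0.07, edgeR adjusted p = 0.000261). Uqcrc2 was 190, 176, 187 and 172 CPM in Ctrl and 234, 253, 214 and 250 CPM in YAP5SA (0.39, SE 0.07, edgeR adjusted p = 0.000378). Both changes were without overlap, and the count of Uqcrc2 per count of Uqcrc1 was 1.43 to 1.67 in Ctrl and 2.44 to 2.99 in every YAP5SA library. For Uqcrc2, 16.5% of 75-base stretches also occur in another annotated gene, Pdzd9, so part of its count is uncertain. Uqcrh, the hinge protein that helps dock cytochrome c1, rose from 201 to 214 CPM in Ctrl to 262 to 287 CPM in YAP5SA (0.39, SE 0.07, edgeR adjusted p = 0.00012). Cyc1, cytochrome c1 itself, fell by 0.29 (edgeR adjusted p = 0.0086) with YAP5SA replicate 4 at 67.7 CPM inside the Ctrl range and the other 3 at 54.9 to 56.9 CPM, and it was not called under library size scaling (-0.12, adjusted p = 0.248). The accessory subunits Uqcr11 (-0.28, edgeR adjusted p = 0.0125) and Uqcrb (-0.23, edgeR adjusted p = 0.0154) were also lower, Uqcrb not passing without YAP5SA replicate 1 (adjusted p = 0.0532).

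Cycs, the soluble carrier cytochrome c that also takes part in apoptosis, fell further than any subunit of complex III. Its level was 167, 159, 169 and 165 CPM in Ctrl and 95.2, 94.7, 87.2 and 125 CPM in YAP5SA, a difference of -0.72 (SE 0.10, edgeR adjusted p = 2.17e-05). All 4 YAP5SA libraries were below Ctrl, with replicate 4 the nearest, and without it the difference was -0.84. Of the 75-base stretches of Cycs, 23.9% occur in another annotated gene, chiefly Gm10053.

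Complex IV, cytochrome c oxidase, reduces oxygen, and the subunits that fell furthest in it were Cox5b and Cox5a. Cox5b was 79.6, 84.4, 91.0 and 82.8 CPM in Ctrl and 40.7, 41.5, 45.2 and 49.3 CPM in YAP5SA (-0.93, SE 0.08, edgeR adjusted p = 2.62e-07). Cox5a was 116, 125, 129 and 106 CPM in Ctrl and 62.4, 61.8, 67.2 and 78.4 CPM in YAP5SA (-0.82, SE 0.09, edgeR adjusted p = 3.10e-06). These were the lowest differences among all nuclear members, with every YAP5SA library well below every Ctrl library. Cox4i1, the regulatory subunit that binds nucleotides, fell by less, from 216 to 237 CPM to 183 to 198 CPM (-0.29, SE 0.07, edgeR adjusted p = 0.00171), and was not called under library size scaling (-0.11, adjusted p = 0.166). Cox6a1 was lower by 0.19 with overlapping groups (edgeR adjusted p = 0.0349) and lost its call under upper quartile and library size scaling, without the filter, and without Ctrl replicate 3, YAP5SA replicate 1 or YAP5SA replicate 2.

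Other complex IV genes rose. Cox7a2l, which takes part in joining complexes III and IV into supercomplexes, was 175, 153, 170 and 163 CPM in Ctrl and 234, 262, 219 and 220 CPM in YAP5SA, with no overlap (0.50, SE 0.08, edgeR adjusted p = 6.49e-05). Cox7a2 (0.29, edgeR adjusted p = 0.00401) and Cox7c (0.28, edgeR adjusted p = 0.00287) were also higher. Ndufa4, named for complex I and now placed in complex IV, was 66.2, 34.8, 43.1 and 50.9 CPM in Ctrl and 67.5, 74.1, 66.0 and 77.7 CPM in YAP5SA. Its Ctrl libraries were spread widely, replicate 1 reaching the YAP5SA range (0.55, SE 0.15, edgeR adjusted p = 0.00528). Cox6c, Cox8a and Cox6b1 differed by 0.09, -0.05 and -0.06 and did not pass.

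Several complex IV subunits exist as isoforms made in particular tissues. Cox6b2, known from testis, was a low transcript here, at 2.48, 1.36, 1.25 and 2.63 CPM in Ctrl and 3.77, 5.10, 3.46 and 4.15 CPM in YAP5SA. It was higher in every YAP5SA library (1.10, SE 0.27, edgeR adjusted p = 0.00273). Cox7a1, the heart and muscle form, was low in both groups and not called (0.37, edgeR adjusted p = 0.546). Of the 9 members too low to be tested, 7 belong to complex IV. Cox8b, Cox8c and Cox7b2 had no counts in any library. Cox4i2 had 0 counts in all Ctrl libraries together and 1 in all YAP5SA libraries, Cox6a2 had 0 and 4, and Cox6c2 had 33 and 21. The other untested members were the complex I paralogues Ndufb11b and Ndufa11b, together with Ndufa4l2, with at most 2 counts in a group. A count of 0 allows up to 3 counts in a library, which is 0.125 to 0.178 CPM at these depths, for counting error only.

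Complex V makes ATP. In its F1 part, the catalytic head with the central stalk, 4 of 5 genes were called lower under TMM and none higher. Of all genes tested, 31.3% were called lower. Atp5e, the small epsilon subunit of the central stalk, fell furthest, from 81.3, 83.1, 87.7 and 85.1 CPM in Ctrl to 48.7, 50.8, 50.7 and 49.8 CPM in YAP5SA (-0.75, SE 0.07, edgeR adjusted p = 2.97e-07). Its libraries were tight within each group, with an SD of 2.74 CPM in Ctrl and 0.968 CPM in YAP5SA (n = 4). Atp5d, the delta subunit beside it, fell by 0.39 (edgeR adjusted p = 0.00027). The catalytic Atp5b, the beta subunit of F1, was 808 to 919 CPM in Ctrl and 669 to 759 CPM in YAP5SA (-0.30, edgeR adjusted p = 0.00236). Under library size scaling Atp5b stood at -0.12 (adjusted p = 0.158) and Atp5a1, called lower by 0.21 in the TMM fit (edgeR adjusted p = 0.0167), at -0.04 (adjusted p = 0.681), while Atp5e and Atp5d were still called. Atp5c1, the gamma subunit, was not called (-0.10, edgeR adjusted p = 0.217).

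In the membrane part, Atp5md, which helps dimers of the synthase form, rose from 79.5 to 85.7 CPM in Ctrl to 105 to 133 CPM in YAP5SA (0.47, SE 0.08, edgeR adjusted p = 0.000173). Atp5mpl rose from 77.4 to 86.7 CPM to 103 to 118 CPM (0.44, SE 0.07, edgeR adjusted p = 0.00012). Atp5o of the peripheral stalk (-0.24, edgeR adjusted p = 0.0165) and Atp5j2 (-0.22, edgeR adjusted p = 0.0131) were lower, Atp5j2 not passing without YAP5SA replicate 1 (adjusted p = 0.0527). Atp5l passed narrowly (0.17, edgeR adjusted p = 0.048) and lost its call under 11 alternatives, among them 7 of the 8 fits that leave out a library.

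The c ring, the rotor turned by protons, is made of 1 protein encoded by 3 genes whose mature products are the same and whose import sequences differ. The genes did not move together. Atp5g3 was 216, 210, 214 and 223 CPM in Ctrl and 140, 145, 142 and 162 CPM in YAP5SA (-0.55, SE 0.07, edgeR adjusted p = 9.88e-06). Atp5g1 was 40.6, 40.3, 46.2 and 40.4 CPM in Ctrl and 25.4, 28.3, 24.8 and 32.2 CPM in YAP5SA (-0.60, SE 0.10, edgeR adjusted p = 0.00012). Atp5g2 went the other way, from 76.8, 69.4, 83.9 and 73.1 CPM to 104, 105, 101 and 101 CPM (0.44, SE 0.07, edgeR adjusted p = 0.000142). Groups were apart for all 3, and each was still called in its direction under library size scaling. Counts of Atp5g2 per count of Atp5g3 were 0.329 to 0.392 in Ctrl and 0.621 to 0.742 in YAP5SA, while counts of Atp5g1 per count of Atp5g3 overlapped (0.182 to 0.216 against 0.175 to 0.199). For Atp5g2, 35.8% of 75-base stretches also occur in another annotated gene, chiefly the pseudogene Gm10175, so its count is less certain than those of the other c ring genes.

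**Figure D4:**
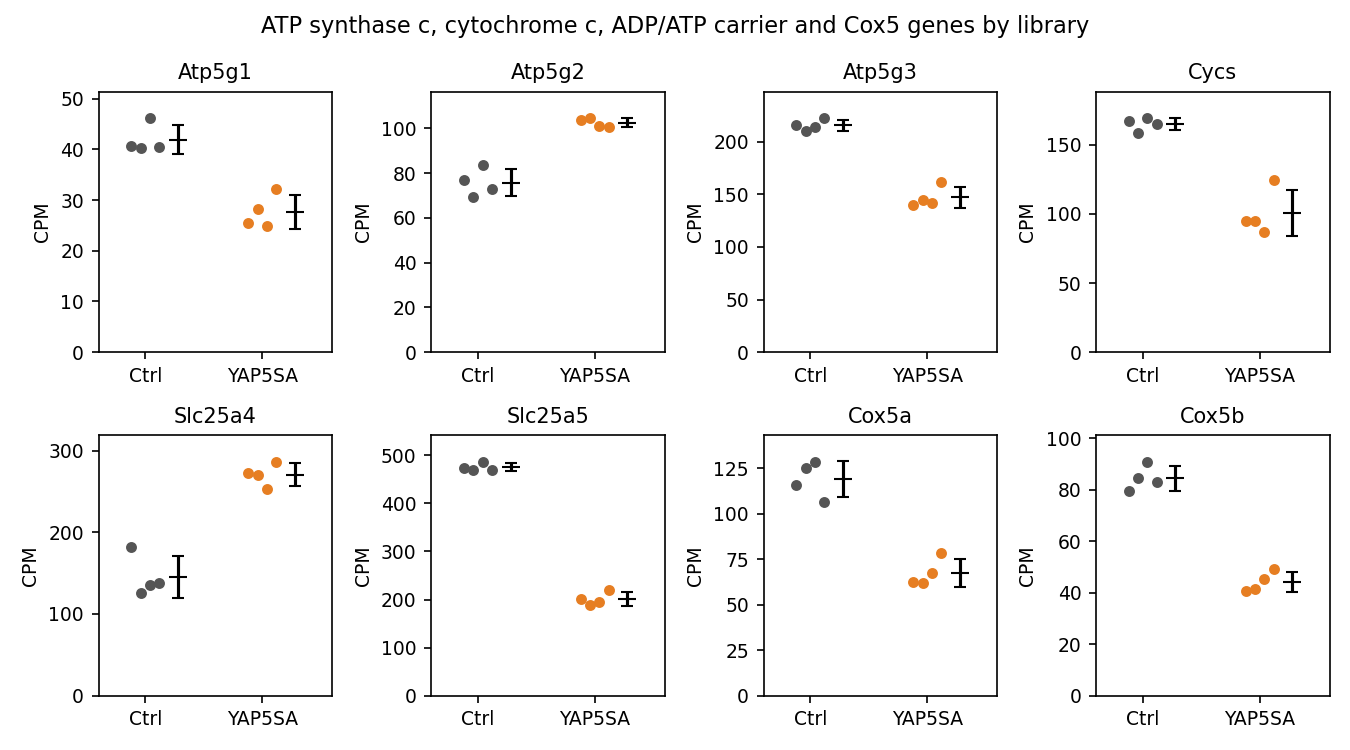
CPM in each library of the 3 c ring genes, cytochrome c, the ADP/ATP carriers Slc25a4 and Slc25a5, and Cox5a and Cox5b, with points for libraries and bars for the group mean and SD (n = 4). Atp5g2 and Slc25a4 are higher in YAP5SA, and the other 6 genes are lower, without overlap in any panel.

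Because c ring paralogues parted and complex II genes were all called lower under TMM, the promoters of Atp5g1, Atp5g2, Atp5g3, Sdha, Sdhb and Sdhd are shown. They were chosen after the values were seen, and the promoter of Sdhc is not shown. The sequences are the 250 bases before the RefSeq transcription start in GRCm38.p6, written 5′ to 3′ on the gene's strand. The promoters are Atp5g1 at chr11:96075632-96075881, Atp5g2 at chr15:102671048-102671297, Atp5g3 at chr2:73911327-73911576, Sdha at chr13:74350241-74350490 and Sdhd at chr9:50603850-50604099, all on the minus strand, and Sdhb at chr4:140961021-140961270 on the plus strand. Capitals mark matches on either strand to motifs of factors known for mitochondrial genes: the letters GCGCA, any base, then GCGC for NRF1, CCGGAAG for GABP and other ETS factors, and TCAAGGTCA for ERR receptors.
Atp5g1: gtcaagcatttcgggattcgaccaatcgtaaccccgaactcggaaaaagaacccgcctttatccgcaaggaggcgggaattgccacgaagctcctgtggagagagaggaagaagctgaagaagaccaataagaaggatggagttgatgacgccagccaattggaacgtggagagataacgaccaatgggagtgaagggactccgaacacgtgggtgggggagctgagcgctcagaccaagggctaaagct
Atp5g2: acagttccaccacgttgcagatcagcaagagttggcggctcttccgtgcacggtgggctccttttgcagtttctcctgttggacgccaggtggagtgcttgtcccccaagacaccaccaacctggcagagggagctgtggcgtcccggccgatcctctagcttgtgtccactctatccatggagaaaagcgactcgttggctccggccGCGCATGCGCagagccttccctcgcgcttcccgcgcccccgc
Atp5g3: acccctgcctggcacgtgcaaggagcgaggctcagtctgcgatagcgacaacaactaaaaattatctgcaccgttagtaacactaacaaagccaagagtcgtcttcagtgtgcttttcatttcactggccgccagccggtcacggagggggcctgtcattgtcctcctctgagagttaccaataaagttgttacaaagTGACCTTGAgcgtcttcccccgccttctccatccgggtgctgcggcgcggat
Sdha: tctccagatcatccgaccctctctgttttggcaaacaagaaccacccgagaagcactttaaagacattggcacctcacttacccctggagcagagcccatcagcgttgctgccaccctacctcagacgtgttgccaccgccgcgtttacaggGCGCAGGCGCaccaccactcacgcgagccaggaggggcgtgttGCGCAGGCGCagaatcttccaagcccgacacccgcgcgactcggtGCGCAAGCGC
Sdhb: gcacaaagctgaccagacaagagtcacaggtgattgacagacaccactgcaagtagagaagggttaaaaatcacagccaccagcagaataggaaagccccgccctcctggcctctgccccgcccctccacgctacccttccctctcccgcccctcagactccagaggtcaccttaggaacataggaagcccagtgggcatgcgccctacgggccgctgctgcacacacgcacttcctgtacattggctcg
Sdhd: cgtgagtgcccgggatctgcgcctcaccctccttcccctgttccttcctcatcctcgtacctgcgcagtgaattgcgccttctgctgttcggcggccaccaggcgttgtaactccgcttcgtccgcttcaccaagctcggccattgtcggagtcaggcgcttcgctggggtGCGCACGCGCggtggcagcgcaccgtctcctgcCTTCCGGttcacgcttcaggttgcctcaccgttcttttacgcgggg
In these windows Atp5g2 holds an NRF1 motif, Atp5g3 an ERR motif, and Atp5g1 none of the searched motifs. Sdha holds 3 NRF1 motifs, Sdhd 1 NRF1 and 1 GABP motif, and Sdhb none of the letters marked here. A shorter NRF1 spelling, GCGCATGC, was searched on either strand. It occurs in Sdhb, where it is not marked, and in Atp5g2 inside the NRF1 match already marked. A match is a description of letters and says nothing of binding.

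RefSeq promoters were found for 78 of the 101 nuclear members. The shares below are set beside those of all promoters, which include genes not tested here. They were not matched for expression level or base composition. In windows of 250 bases before to 50 after the start, the NRF1 letters occurred in 24.4% of member promoters and in 5.19% of the promoters of all 27025 genes in the table, and the GABP letters in 24.4% and 9.93%. The letters of YY1, AAGATGGC, occurred in 14.1% of member promoters and 3.19% of all promoters, and before the start alone in 1.28% and 1.83%. With spellings of the same factors added later, GCGCATGC stood in 16.7% against 3.05% and CCGGAAGT in 6.41% against 4.31%. Matches did not sort the members by direction: NRF1 letters were in 4 of 21 members called higher, 7 of 23 called lower and 8 of 32 not called, and GABP letters in the same numbers. The letters GGAATGT of TEAD, the DNA-binding partner of YAP, occurred in 2.56% of member promoters (Atp5d and Cox5a, both lower in YAP5SA) and in 4.47% of all promoters. The shorter GGAATG occurred in 10.3% against 16.6%, in 2 of 21 members called higher, 4 of 23 called lower and 2 of 32 not called. TCAAGGTCA occurred in 2.56% (Atp5g3 and Sdhd) against 0.466%. The TEAD and ERR letters were also added later.

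The mitochondrial genome encodes 13 subunits, read from long precursor transcripts. Together their mRNAs took 4.25 ± 0.303% of all counts in Ctrl and 5.02 ± 0.321% in YAP5SA (SD, n = 4), with every YAP5SA library (4.72% to 5.42%) above every Ctrl library (3.99% to 4.69%). On the TMM scale used for the levels of single genes, their summed level was 43466 to 48211 CPM in Ctrl and 43766 to 52016 CPM in YAP5SA, and the groups overlapped. Of all counts, mt-Co1 mRNA, for the catalytic subunit of complex IV, took 2.03% to 2.37% in Ctrl and 3.05% to 3.49% in YAP5SA, and the other 12 mRNAs together took 1.97% to 2.32% and 1.59% to 2.12%. Nuclear members together took 0.873% to 0.971% in Ctrl and 0.960% to 1.02% in YAP5SA, and these ranges overlap. On the TMM scale the nuclear members summed to 9508 to 10150 CPM in Ctrl and 8891 to 9830 CPM in YAP5SA, so the direction of their sum turned with the scaling, with overlap on both scales.

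By gene, mt-Co1 was 24339, 22048, 22957 and 21673 CPM in Ctrl and 29954, 33215, 28286 and 31673 CPM in YAP5SA (0.44, SE 0.08, edgeR adjusted p = 0.000276). mt-Cytb, the complex III subunit, was 7718, 7225, 7303 and 7615 CPM in Ctrl and 4188, 4573, 4584 and 6395 CPM in YAP5SA (-0.60, SE 0.11, edgeR adjusted p = 0.000376). Neither pair of groups overlapped, and the counts of mt-Co1 per count of mt-Cytb were 2.85 to 3.15 in Ctrl against 4.95 to 7.26 in YAP5SA. The complex I mRNA mt-Nd2 was 3447, 3273, 3302 and 3374 CPM in Ctrl and 2099, 2257, 2127 and 2930 CPM in YAP5SA (-0.51, SE 0.10, edgeR adjusted p = 0.000485). mt-Nd4 was 2733, 2487, 2436 and 2518 CPM in Ctrl and 1551, 1681, 1622 and 2278 CPM in YAP5SA (-0.51, SE 0.11, edgeR adjusted p = 0.000928). mt-Nd1 was 6498, 5285, 5594 and 5662 CPM in Ctrl and 4165, 4397, 4266 and 5449 CPM in YAP5SA (-0.33, SE 0.10, edgeR adjusted p = 0.00834), with YAP5SA replicate 4 inside the Ctrl range. Under library size scaling mt-Nd1 was not called (-0.16, adjusted p = 0.158), and mt-Co1, mt-Cytb, mt-Nd2 and mt-Nd4 were.

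YAP5SA replicate 4 was the library nearest to Ctrl for mt-Cytb, mt-Nd1, mt-Nd2, mt-Nd4 and mt-Nd5, and also for Cycs, Cox5a, Cyc1, Atp5g1 and Atp5g3. It was not for mt-Co1, where it lay within the other YAP5SA values. For Ndufb3, Ndufb6, Atp5md and Sdha it was the YAP5SA library farthest from Ctrl, and the other members are not ranked here. The median difference over the 13 mitochondrial mRNAs was -0.18 with YAP5SA replicate 4 and -0.32 without it. Without it mt-Cytb stood at -0.75, mt-Nd4 at -0.66, mt-Nd2 at -0.64 and mt-Nd1 at -0.44, all still called lower, and mt-Nd5 passed the test (-0.25, edgeR adjusted p = 0.00842), which it did not with all 8 libraries (-0.18, edgeR adjusted p = 0.0511). mt-Nd5 also passed without Ctrl replicate 1, 2 or 3, and with DESeq2, limma-voom or RLE scaling. mt-Nd6, the mRNA of the opposite strand, was lower in every YAP5SA library and not called (-0.14, edgeR adjusted p = 0.0715), except with DESeq2 (adjusted p = 0.0302) and without Ctrl replicate 3 (adjusted p = 0.0485). Whether reads were counted by strand is not given in the sources used here, so reads of mt-Nd6 and of precursors antisense to it cannot be told apart.

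**Figure D5:**
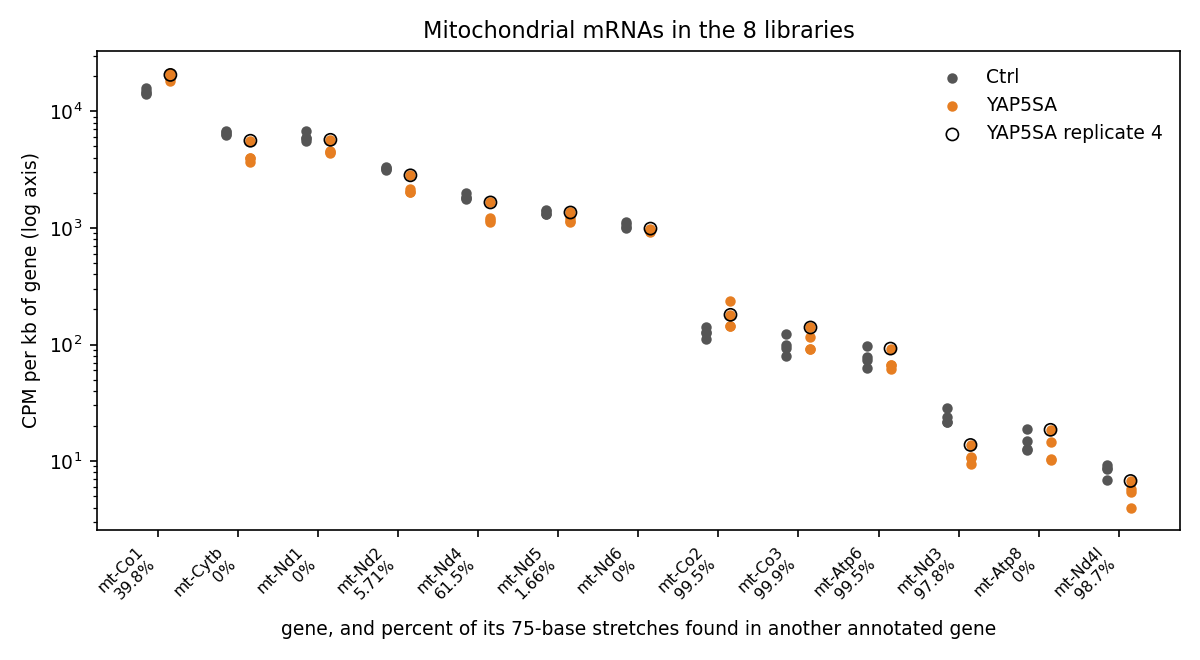
CPM per kb of gene, on a log axis, of the 13 mitochondrial mRNAs in each of the 8 libraries (points, YAP5SA replicate 4 ringed), with the percent of 75-base stretches found in another annotated gene under each name. mt-Co1 is higher in all 4 YAP5SA libraries, and mt-Cytb, mt-Nd2 and mt-Nd4 are lower in all 4.

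The remaining mitochondrial mRNAs carried far fewer counts than their length would give beside the others, and most of them have near-identical copies in the nuclear genome. The GENCODE M21 annotation (GRCm38) lists 7 such pseudogenes side by side on the minus strand of chromosome 1, at chr1:24611535-24616197. For mt-Co2, mt-Co3, mt-Atp6, mt-Nd3 and mt-Nd4l, 97.8% to 99.9% of all 75-base stretches also occur in another annotated gene. mt-Nd3 and its copy Gm28438 are shown over their first 120 bases because mt-Nd3 had the lowest difference of all members, and capitals mark the single base at which these differ.
mt-Nd3: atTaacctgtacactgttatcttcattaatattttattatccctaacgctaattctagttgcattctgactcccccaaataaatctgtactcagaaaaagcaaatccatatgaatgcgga
Gm28438: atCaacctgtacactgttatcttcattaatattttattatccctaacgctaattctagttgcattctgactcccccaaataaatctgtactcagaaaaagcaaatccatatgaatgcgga
Reads from such stretches cannot be placed in one copy or the other by sequence, and how they were counted is not given in the sources used here.

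Per length, the 5 mRNAs with almost wholly shared sequence had group means of 8.31 to 127 CPM per kb in Ctrl. The 5 with at most 5.71% shared, leaving out mt-Atp8, had 1054 to 6526 CPM per kb. mt-Atp8 shares none of its stretches with an annotated gene, overlaps mt-Atp6, and had 14.7 CPM per kb in Ctrl. Only annotated transcripts were searched, so a nuclear copy of mt-Atp8 without an annotation would be missed. The gap on chromosome 1 between the copies of mt-Atp6 (to 24614651) and mt-Co2 (from 24614885) was not searched. mt-Nd4 and mt-Co1, with 61.5% and 39.8% shared, had 1846 and 14728 CPM per kb in Ctrl. The values of the shared group describe counts that mitochondria and nuclear copies cannot be told apart in.

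With that limit, mt-Nd3 was 9.93, 7.52, 8.26 and 7.60 CPM in Ctrl and 3.27, 3.69, 3.78 and 4.79 CPM in YAP5SA (-1.10, SE 0.17, edgeR adjusted p = 7.34e-05). Gm28438, its copy, differed by -0.89 (edgeR adjusted p = 0.00112). mt-Co2 was 96.4, 77.0, 86.1 and 88.4 CPM in Ctrl and 98.8, 99.2, 161 and 123 CPM in YAP5SA (0.47, SE 0.14, edgeR adjusted p = 0.00782). Its copy Gm28661 differed by 0.43 (edgeR adjusted p = 0.000872) and Gm29216, the copy of part of mt-Co1, by 0.56 (edgeR adjusted p = 3.96e-05). The other copies differed by -0.82 (Gm10222, of mt-Nd4l), -0.47 (Gm28439, of mt-Nd4), -0.10 (Gm10925, of mt-Atp6) and 0.13 (Gm28437, of mt-Co3). Each of the 7 copies thus had a fitted difference of the same sign as the mitochondrial gene it matches. mt-Nd4l was called narrowly (-0.60, SE 0.25, edgeR adjusted p = 0.0477) and lost its call under 11 alternatives, among them 6 of the 8 fits that leave out a library. mt-Co3 (0.15), mt-Atp6 (-0.11) and mt-Atp8 (-0.12) did not pass, with edgeR adjusted p of 0.387, 0.491 and 0.691. Of the mitochondrial ribosomal RNAs, mt-Rnr2 was lower (-0.43, edgeR adjusted p = 0.00605) and mt-Rnr1 was not called (-0.06, edgeR adjusted p = 0.655).

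Genes that serve the pathway without matching the rule for members were read from 6 lists, to be set beside the 64.5% of all genes called. The lists were chosen with earlier results of these data known. The list of the ATP synthase inhibitor, uncoupling proteins, ADP exchange and linked regulators had the highest median absolute difference of the 6, 0.90 against 0.52 over all genes. In it 5 of 9 tested genes rose and 4 fell, so that every tested gene was called. The ADP/ATP carriers, which exchange the product of the ATP synthase across the inner membrane, moved in opposite directions. Slc25a5, the carrier of dividing cells, was 474, 470, 487 and 470 CPM in Ctrl and 202, 188, 195 and 220 CPM in YAP5SA (-1.24, SE 0.07, edgeR adjusted p = 2.57e-09). Slc25a4, the carrier abundant in heart and muscle, was 182, 125, 136 and 138 CPM in Ctrl and 272, 270, 253 and 287 CPM in YAP5SA (0.90, SE 0.10, edgeR adjusted p = 4e-06). Counts of Slc25a4 per count of Slc25a5 were 0.266 to 0.385 in Ctrl and 1.30 to 1.44 in YAP5SA, passing 1 in every YAP5SA library. Ucp2, an inner membrane carrier of the uncoupling protein family, fell from 617 ± 32.7 to 219 ± 25.5 CPM (SD, n = 4, difference -1.49, SE 0.09, edgeR adjusted p = 4.28e-09). Pdk3, a kinase that inhibits pyruvate dehydrogenase, rose from 2.72 to 5.13 CPM to 11.99 to 12.7 CPM (1.71, SE 0.18, edgeR adjusted p = 1.31e-06). Slc25a5 and Pdk3 are X-linked, and they moved in opposite directions.

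Of 18 genes of pyruvate dehydrogenase and the citric acid cycle, 7 rose, 8 fell and 3 did not pass, 83.3% called. Suclg2, the GTP-forming subunit of succinyl-CoA synthetase and so a step before complex II, fell by 0.78 (edgeR adjusted p = 1.12e-07), and Ogdh, a subunit of the preceding 2-oxoglutarate dehydrogenase, fell by 0.70 (edgeR adjusted p = 3.6e-07). Idh2, the mitochondrial NADP-dependent isocitrate dehydrogenase, rose by 0.94 (edgeR adjusted p = 2.54e-06), and Cs, citrate synthase, fell by 0.40 (edgeR adjusted p = 0.000127). Of 43 tested assembly factors outside the Nduf names 7 rose, 14 fell and 22 did not pass, 48.8% called. Sco1, which delivers copper to complex IV, fell from 29.9 to 40.5 CPM to 12.4 to 16.9 CPM (-1.34, SE 0.12, edgeR adjusted p = 3.74e-07), and Nubpl, which brings iron-sulfur clusters to complex I, rose from 6.03 to 8.94 CPM to 15.7 to 18.4 CPM (1.11, edgeR adjusted p = 6.7e-06). Tmem186 (-1.02), a complex I assembly factor, and Uqcc3 (-0.86), a complex III assembly factor, fell. Of 28 genes of mitochondrial DNA expression 10 rose, 6 fell and 12 did not pass, 57.1% called. Mterf4 (0.67), Trmt10c (0.62) and Slirp (0.52) rose and Tbrg4 (-0.62) fell, and these serve mitochondrial ribosome assembly, tRNA processing and RNA stability. Of 24 genes of import and cristae 7 rose, 4 fell and 13 did not pass, 45.8% called. In the import and cristae list Chchd6, a protein of the cristae-forming MICOS complex, rose from 3.17 to 5.39 CPM to 15.1 to 20.97 CPM (2.05, SE 0.17, edgeR adjusted p = 1.48e-07). The mitochondrial chaperones Hspe1 (0.89) and Hspa9 (0.67) and the import receptor Tomm20 (0.70) also rose.

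Among 12 tested regulators of mitochondrial biogenesis 1 rose, 5 fell and 6 did not pass. This list was thus called less often than all genes tested, of which 64.5% were called. The PGC-1 co-activators were low in these libraries and moved apart. Ppargc1b was 2.31 to 2.85 CPM in Ctrl and 0.416 to 1.01 CPM in YAP5SA (-1.71, SE 0.30, edgeR adjusted p = 0.000188), and Ppargc1a was 1.17 to 2.19 CPM in Ctrl and 2.66 to 4.06 CPM in YAP5SA (1.16, SE 0.27, edgeR adjusted p = 0.00173). Esrra, the receptor ERR alpha through which they act, fell by 0.62 (edgeR adjusted p = 1.08e-05), and Esrrg had 75 counts in all of Ctrl and 9 in all of YAP5SA (-3.08, SE 0.56, edgeR adjusted p = 0.00024). Of the factors whose motifs were searched above, Nrf1, Yy1 and Gabpa, the DNA-binding subunit of GABP, each differed by 0.02 and did not pass in the TMM fit. The beta subunits of GABP differed from each other: Gabpb2 was 70.9, 65.8, 68.7 and 65.4 CPM in Ctrl and 38.4, 39.5, 35.6 and 39.1 CPM in YAP5SA (-0.83, SE 0.07, edgeR adjusted p = 2.87e-07), and Gabpb1 was not called (0.12, edgeR adjusted p = 0.281). Sirt1, a deacetylase that acts on PGC-1 alpha, fell by 0.95 (edgeR adjusted p = 5.28e-06). Ppargc1a, Esrrg, Gabpa, Gabpb1, Nrf1 and Yy1 were singled out after their values were seen.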

How the data were processed

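The authors deposited a table of raw counts per gene for the 8 libraries. Per the submitters' processing notes, the tools were cutadapt, HISAT2 2.0.1 and HTSeq 0.6.1 with the build mm9. Annotation, strand setting and treatment of reads with several matches: not given in the sources used here. From the counts, edgeR 4.0.16 (R 4.3.3) was run with TMM scaling, filterByExpr (minimum count 10, minimum total 15) and the quasi-likelihood F test over 13812 genes, with Benjamini-Hochberg adjustment and a threshold of 0.05. The script was tested on simulated data. The standard error is the absolute log2 difference divided by the square root of F. Replicates differed by more than sampling noise (chi-square per degree of freedom 4.69 to 34.9). Shared 75-base stretches and lengths came from GENCODE M21, and promoters from RefSeq. Ndufb1, Ndufb11b, Atp5pb and Atp5md were not found in GENCODE M21 by symbol, so their shared stretches were not measured. Depth limits precision for the low members. Members and lists were chosen with earlier results of these data known. Named genes are the mitochondrial mRNAs, isoform sets, X-linked members, up to 3 called members with the highest and 3 with the lowest difference per complex, and up to 4 genes with the smallest p per list. Others, such as Ndufv1, Ndufs3, Ndufs1, Ndufaf4, Cox7c, Atp5b, Atp5a1, Atp5c1, Atp5l, Atp5o and Atp5j2, were named after their values were seen. Alternatives were DESeq2 1.42.0, limma-voom (limma 3.58.1), other scalings and filters, a replicate block, and leaving out each library.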

Additional observations from a re-analysis of the deposited data

Results flagged for a closer look

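The spread within each group of 4 was examined for every tested member, 210 groups in all. In 12 of them a single library stood apart from the other 3 by Dixon's criterion, and chance gives about 1 in 20 groups. In the following values, in CPM, the range of the other 3 libraries is in brackets. YAP5SA replicate 4 was high for Ndufa8 at 51.4 (47.2 to 47.9), for Ndufaf4 at 34.9 (20.2 to 22.3) and for Cyc1 at 67.7 (54.9 to 56.9), and low for Cox7a1 at 0.0912 (0.693 to 0.780). YAP5SA replicate 3 was low for Ndufb9 at 57.6 (61.2 to 61.9), and YAP5SA replicate 1 was high for Ndufaf2 at 11.4 (9.05 to 9.43). Ctrl replicate 3 was high for Uqcrh at 214 (201 to 203), for Cox7a2 at 101 (93.1 to 94.1) and for Atp5g1 at 46.2 (40.3 to 40.6). Ctrl replicate 1 was high for Ndufs3 at 60.0 (53.9 to 54.4), Ctrl replicate 2 was low for Atp5md at 79.5 (84.8 to 85.7), and Ctrl replicate 4 was low for Ndufaf2 at 8.55 (10.7 to 11.1).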

How the results depend on the processing

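The 28 members called higher and 35 called lower became 26 and 37 with DESeq2, 28 and 37 with limma-voom, 27 and 37 with RLE scaling, 29 and 29 with upper quartile scaling, 39 and 15 with library size scaling, and 27 and 31 without the filter. With a difference of at least 1 on the log2 scale required, 2 were higher and 1 was lower. Leaving out each library gave 24 to 28 higher and 30 to 37 lower members, and no member reversed its direction while called in any of these fits. Pathway genes outside the members, 37 higher and 41 lower, became 31 to 37 and 39 to 44, and 55 and 28 with library size scaling. The share of counts in mitochondrial mRNA ranged from 4.10% to 4.33% in Ctrl and from 4.89% to 5.12% in YAP5SA when a library was left out. The YY1 letters went from 14.1% to 1.28% of member promoters when the bases after the start were left out. Equal replicate numbers are not stated to mark a shared source, and deviations of same-numbered libraries correlated at 0.065, 0.046, 0.09 and 0.281. With a replicate block the members called were 28 higher and 35 lower, with 2 calls lost and 2 gained, and 2 of 4 Ctrl libraries correlated best with their own number.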
